A study of Mus musculus with 2 samples.

Results

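Glycolysis and hypoxia response genes were examined as a set of 32 genes in single-cell libraries of mouse liver. The set was given as a list of gene symbols covering sugar and lactate carriers, the enzymes from hexokinase to lactate dehydrogenase, the oxygen-sensing transcription factor subunit Hif1a with its regulators, and common targets of that factor. No cut on an expression value defined the set, but its members were chosen with earlier results of these data known. All 32 were found among the 34186 gene symbols of the deposited gene lists. The matrices count unique molecular identifiers (UMIs, 1 per captured RNA molecule) near the 3′ end of transcripts, so levels are compared here between cells for 1 gene and not between genes. The size of a gene's range over classes served only to choose which genes to describe.

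The study compared non-parenchymal liver cells of 1 mouse given peanut oil by gavage (Control) with those of 1 mouse given PCB126 in the same way at 20 µg/kg/day, both of strain C57/BL6. PCB126 is a dioxin-like polychlorinated biphenyl and a ligand of the aryl hydrocarbon receptor (AHR). Exposure lasted 5 weeks, and both mice were fasted for 12 hours before their livers were taken, depleted of hepatocytes and treated to lyse red cells. The age recorded for both is postnatal day 21, with no statement of the time point it refers to, and the protocol describes 1 gavage although the dose is given per day. Each group is 1 mouse and 1 library. Mouse, library and treatment therefore cannot be told apart, no test between the groups was possible, and every interval below covers counting error only.

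After filtering, 1858 Control cells and 1138 PCB126 cells remained, with median depths of 5271 and 6567 UMIs and median mitochondrial shares of 7.58% and 12.2%. The libraries shared 3 barcodes, none of them on a cell in both. Cells were gated by marker panels into classes, each called "-like" because the names rest on rebuilt gates. In 4 classes each library held at least 50 cells, and only these were compared. They were liver sinusoidal endothelial cell-like (LSEC-like) with 178 Control and 472 PCB126 cells, vascular endothelial-like with 110 and 162, neutrophil-like with 758 and 97, and cholangiocyte-like with 66 and 85. The libraries filled the LSEC-like, neutrophil-like and, in part, vascular endothelial-like classes from different clusters. LSEC-like cells came from cluster 3, which has a vascular name (72 in the Control and 8 in the PCB126 library), from cluster 4 (11 against 304) and from cluster 7 (50 against 122), besides smaller groups. Neutrophil-like cells lay mostly in clusters 10, 11 and 12 in the Control library and in clusters 18 and 12 in the PCB126 library. Vascular endothelial-like cells lay mostly in clusters 6 (64 and 78) and 3 (42 and 36) in both libraries. Of them, the LSEC-named clusters 7 and 4 held 1 and 0 in the Control library and 30 and 9 in the PCB126 library. All cholangiocyte-like cells lay in cluster 2. The LSEC-defining marker Stab2 stood at 734 and 755 CPM (counts per 1000000 UMIs of the class) in LSEC-like cells, while the vein marker Vwf stood at 132 and 4.44 CPM there. In vascular endothelial-like cells Vwf stood at 2242 CPM in the Control and 866 CPM in the PCB126 library. Of the endothelial cells, 51 of 288 in the Control library and 111 of 634 in the PCB126 library lay within 0.05 of the score that divides LSEC-like from vascular endothelial-like cells.

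Glycolysis splits glucose into pyruvate, which is either reduced to lactate or oxidised in mitochondria. When oxygen is scarce, prolyl hydroxylases no longer mark the HIF alpha subunit for destruction, and it pairs with ARNT to switch on glycolytic enzymes, glucose and lactate carriers, angiogenic signals and mitophagy genes. AHR uses the same partner, ARNT, and the DNA elements of both dimers share a short core. In liver the oxygen level falls along the lobule from the portal to the central vein, and sinusoidal endothelium differs along that axis.

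Promoters are shown because the motif of both dimers can be read in them. RefSeq promoter windows (GRCm38.p6, from 250 bases before to 50 after the start of transcription) were found for 30 of the 32 members. The HIF core ACGTG, searched on both strands, occurred in at least 1 window of 21 of these 30 members (70%), against 21.8% of 27025 genes. The core GCGTG, which both dimers can bind, occurred in 20 members (66.7%) against 35.2% of genes. The longer AHR element TNGCGTG, which contains GCGTG, occurred in Eno1, P4ha1, Pfkl and Pfkp, that is in 4 members (13.3%) against 5.84% of genes. These matches describe letters in a window and not bound sites. The 250 bases before the start, from 5′ to 3′ on the gene's strand, are given for Bnip3 (chr7:138909507-138909756, minus strand), a mitophagy receptor, for Pdk1 (chr2:71872974-71873223, plus strand), the kinase that closes the pyruvate dehydrogenase gate, and for Slc16a3 (chr11:120948817-120949066, plus strand), the lactate exporter. These members had lower levels in PCB126 cells of at least 1 class, and capitals mark each ACGTG or GCGTG on either strand.
Bnip3: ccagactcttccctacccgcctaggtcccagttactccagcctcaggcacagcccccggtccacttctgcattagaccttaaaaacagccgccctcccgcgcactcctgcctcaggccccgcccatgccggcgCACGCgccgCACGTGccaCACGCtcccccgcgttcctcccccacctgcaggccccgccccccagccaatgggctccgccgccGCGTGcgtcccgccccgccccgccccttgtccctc
Pdk1: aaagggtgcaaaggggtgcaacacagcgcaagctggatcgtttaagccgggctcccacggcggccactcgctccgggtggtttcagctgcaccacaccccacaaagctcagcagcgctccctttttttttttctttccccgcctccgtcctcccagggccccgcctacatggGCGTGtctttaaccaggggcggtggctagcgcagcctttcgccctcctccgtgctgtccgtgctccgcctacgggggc
Slc16a3: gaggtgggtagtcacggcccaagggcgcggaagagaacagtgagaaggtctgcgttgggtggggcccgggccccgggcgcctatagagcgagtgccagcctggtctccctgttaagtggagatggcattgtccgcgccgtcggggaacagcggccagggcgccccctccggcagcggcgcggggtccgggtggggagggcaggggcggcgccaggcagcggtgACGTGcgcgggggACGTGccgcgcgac
The Bnip3 stretch held 2 matches to ACGTG, which overlap as the 2 strands of 1 palindrome, and 3 to GCGTG. The Slc16a3 stretch held 2 ACGTG, and that of Pdk1 held 1 GCGTG.

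Across cell classes the members fell into distinct patterns. Summed over all 32, their level in the Control library was 4653 CPM in monocyte-like, 4131 in neutrophil-like, 2485 in plasma-like, 2408 in cholangiocyte-like, 2251 in vascular endothelial-like and 1698 in LSEC-like cells. In the PCB126 library it was 3646 CPM in T and NK-like, 3435 in neutrophil-like, 2742 in conventional dendritic-like, 2507 in cholangiocyte-like, 1920.1 in vascular endothelial-like, 1681 in LSEC-like and 1504 in B-like cells. LSEC-like cells were thus lowest of the Control classes given here and next to lowest of the PCB126 classes. An erythroid-like gate with 75 Control cells is left out of this account, since the cluster led by haemoglobin genes held only 17.

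**Figure D1:**
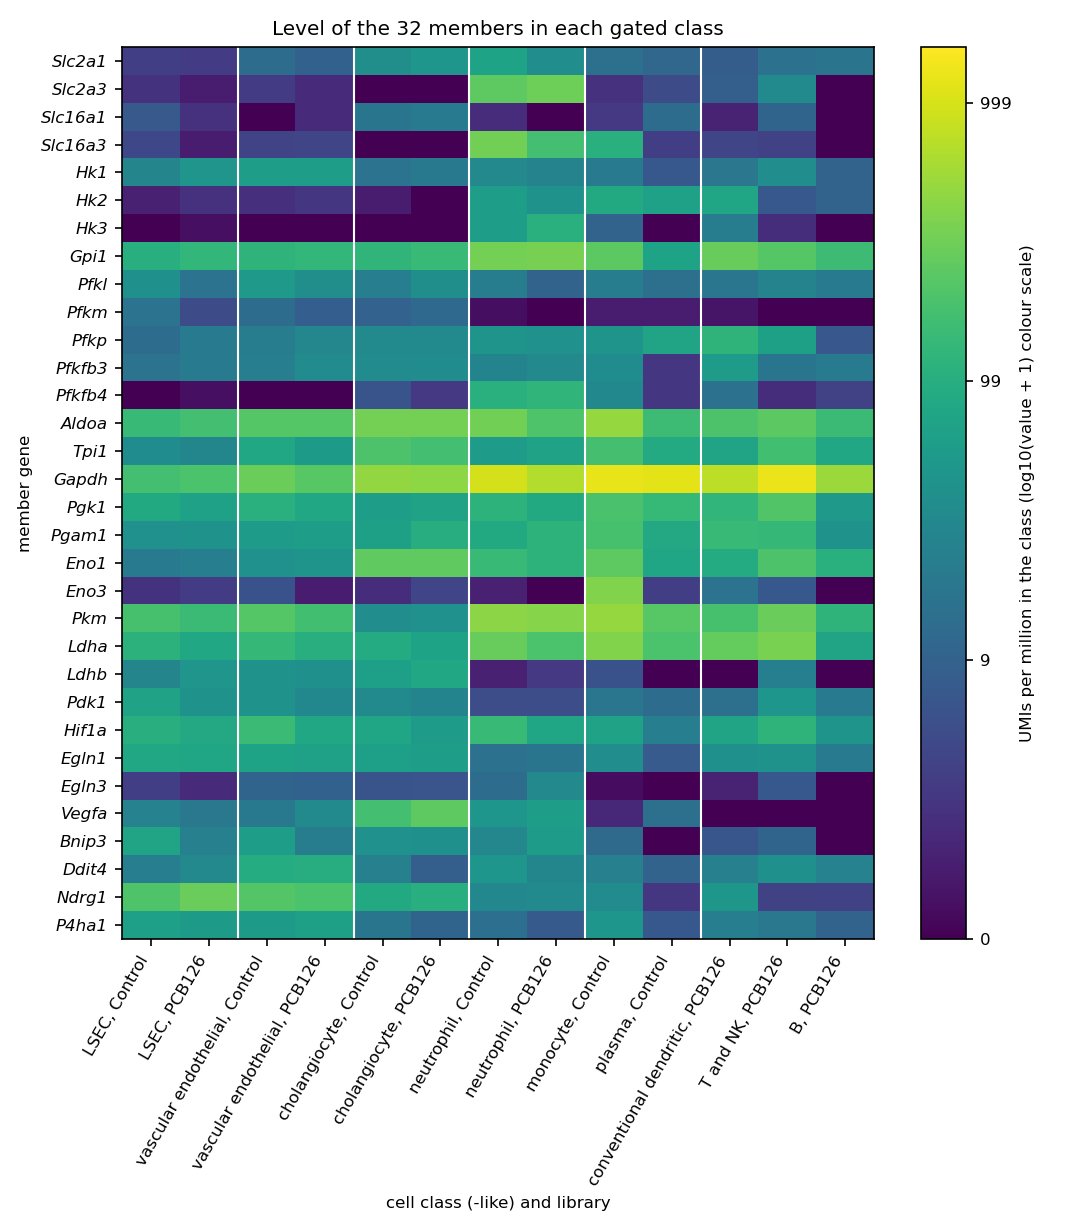
Heat map of the level of each of the 32 members (rows) in each class and library with at least 50 cells (columns), in CPM on a log10(value + 1) colour scale. Slc2a3, Slc16a3, Hk3 and Pfkfb4 are bright in the neutrophil-like columns, Eno3 in the monocyte-like column and Vegfa in the cholangiocyte-like columns.

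Of the carriers and hexokinases, Slc2a3, Slc16a3 and Hk3 had their highest levels in neutrophil-like cells of both libraries, and the others did not. Slc2a3, a high-affinity glucose carrier, stood at 253 CPM (95% Poisson interval 236 to 272) in Control and 310.1 CPM (259 to 368) in PCB126 neutrophil-like cells. Its next level was 32.6 CPM in T and NK-like cells of the PCB126 library, and no UMI was found in cholangiocyte-like cells, where 3 counts would be 2.46 and 1.8 CPM. Slc16a3 was at 331 CPM in Control neutrophil-like cells and 105 CPM in monocyte-like cells, and at or below 3.89 CPM in both endothelial classes. After thinning every cell to 1000 UMIs, 27.7% of Control neutrophil-like cells (95% Clopper-Pearson interval 24.5 to 31.1) and 14.4% of PCB126 ones (8.12 to 23) held a Slc16a3 UMI, against 62.4% and 41.2% unthinned. In LSEC-like cells, which have the greater median depth in each library (5486 and 5546 UMIs, against 3575 and 3931), those thinned shares were 0% (interval up to 2.09) and 0.214%. Slc2a1, the basal glucose carrier, reached 71.6 CPM in Control neutrophil-like and 46.8 CPM in PCB126 cholangiocyte-like cells. The lactate carrier Slc16a1 was highest in cholangiocyte-like cells, at 16.4 and 19.8 CPM. Its next levels, 12.5 CPM in Control plasma-like and 9.79 CPM in PCB126 T and NK-like cells, have overlapping intervals. Of the hexokinases, which trap glucose in the cell, Hk1 was highest in vascular endothelial-like cells (59.6 and 58.8 CPM), Hk2 in monocyte-like cells (86.5 CPM) among Control classes, and Hk3 in neutrophil-like cells (60.8 and 107 CPM). Intervals overlap with the next level for Hk1 in PCB126 (45.5 CPM, LSEC-like) and for Hk2 in Control (66.4 CPM, plasma-like).

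The enzyme Gapdh makes the first reducing equivalents of the pathway. Its Control levels ran from 1213 CPM in monocyte-like and 1164 in plasma-like cells, whose intervals overlap, through 972 in neutrophil-like, 479 in cholangiocyte-like and 306 in vascular endothelial-like to 175 in LSEC-like cells. In the PCB126 library T and NK-like cells led with 1274 CPM, followed by 767 in conventional dendritic-like, 668 in neutrophil-like, 526 in B-like, 456 in cholangiocyte-like, 235 in vascular endothelial-like and 193 in LSEC-like cells. LSEC-like cells thus held the lowest Gapdh level in each library. Pkm, the last ATP-making step, was at 496 CPM in monocyte-like and 440 CPM in neutrophil-like cells of the Control library but at 36 CPM in cholangiocyte-like cells. Aldoa, an aldolase, was at 487 CPM in monocyte-like cells and between 143 and 335 CPM in the other Control classes. Gpi1, which interconverts glucose and fructose phosphates, was highest in neutrophil-like cells of both libraries (341 and 346 CPM). Its next PCB126 level, 285 CPM in conventional dendritic-like cells, has an overlapping interval. Eno3, the muscle-type enolase, stood at 389 CPM (369 to 409) in monocyte-like cells and at most at 15.7 CPM in the other classes given here. Eno1, the common enolase, was at 259 CPM in cholangiocyte-like cells and 19.5 CPM in LSEC-like cells of the Control library. The regulatory kinase Pfkfb4 was at 108 and 122 CPM in neutrophil-like cells and had no UMI in vascular endothelial-like cells of either library, where 3 counts would be 2.67 and 2.2 CPM. Reads of Gapdh, Aldoa, Pkm, Ldha, Eno1, Pgk1, Pgam1 and Tpi1 can be shared with processed pseudogenes, so their levels are uncertain to that extent.

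For the fate of pyruvate, Ldha, the lactate-forming subunit, was at 391 CPM in monocyte-like, 285 in neutrophil-like, 198 in plasma-like, 135 in vascular endothelial-like, 114 in LSEC-like and 91.7 CPM in cholangiocyte-like Control cells. The intervals of neighbours overlap among the last 3. In the PCB126 library its level was 359 CPM in T and NK-like, 279 in conventional dendritic-like, 193 in neutrophil-like, 99.2 in vascular endothelial-like, 82.8 in LSEC-like, 73.3 in B-like and 70.9 CPM in cholangiocyte-like cells. Ldhb, the heart-type subunit, showed another order, with 63 CPM in cholangiocyte-like, 43.6 in vascular endothelial-like and 27.2 in LSEC-like Control cells against 0.95 CPM in neutrophil-like cells.

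Of the oxygen-sensing members, Hif1a was at 150.3 CPM in vascular endothelial-like, 143 in neutrophil-like, 101 in LSEC-like, 75.3 in cholangiocyte-like, 68.7 in monocyte-like and 22.1 CPM in plasma-like Control cells. The first 2 levels do not differ beyond their intervals, nor do those of LSEC-like and cholangiocyte-like or of cholangiocyte-like and monocyte-like cells. In PCB126 cells Hif1a spanned a narrower range, with 119 CPM in T and NK-like, 84.7 in LSEC-like, 79.4 in vascular endothelial-like, 76.3 in neutrophil-like, 73.8 in conventional dendritic-like, 57.6 in cholangiocyte-like and 44.6 CPM in B-like cells. Egln1, the main HIF prolyl hydroxylase, was highest in LSEC-like cells of both libraries (80.7 and 76.2 CPM). It was next highest in vascular endothelial-like cells (71.1 and 67.6 CPM), and the intervals overlap in each library. Egln3, an inducible relative, stayed at or below 12.7 CPM in Control classes and reached 31 CPM in PCB126 neutrophil-like cells. Vegfa, the angiogenic ligand, was at 175 and 253 CPM in cholangiocyte-like cells. It was next highest in neutrophil-like cells (46.9 and 62 CPM), was at 25.3 and 18.1 CPM in LSEC-like, 18.7 and 32.3 in vascular endothelial-like, 14 in plasma-like and 1.35 CPM in monocyte-like cells, and had no UMI in T and NK-like, B-like or conventional dendritic-like cells, where 3 counts would be 4.89, 9.56 and 1.57 CPM. Ndrg1, a stress-response gene, was highest in the endothelial classes, with 208 and 293 CPM in LSEC-like and 219.6 and 198 CPM in vascular endothelial-like cells. It was at 86.8 and 104 CPM in cholangiocyte-like and 30.1 and 33.4 CPM in neutrophil-like cells.

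To compare the 2 libraries within a class, a member entered only when its mean level equalled at least 20 UMIs in the smaller class total, and a ratio of at least 1.5 in either direction was counted as past the fold. A gene can pass this floor through the library where it is high, so the members that passed are not a sample of all members. In LSEC-like cells 20 of the 32 passed. Hk1 and Ldhb were higher and Pfkl, Pdk1 and Bnip3 lower in PCB126 cells, 5 of 20, where 19.8% of the 5811 genes above the floor were past the fold (11.4% higher and 8.42% lower). The median log2 ratio of the members was -0.16, beside 0.03 for all genes. The count is close to that background and says nothing particular about the set.

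**Figure D2:**
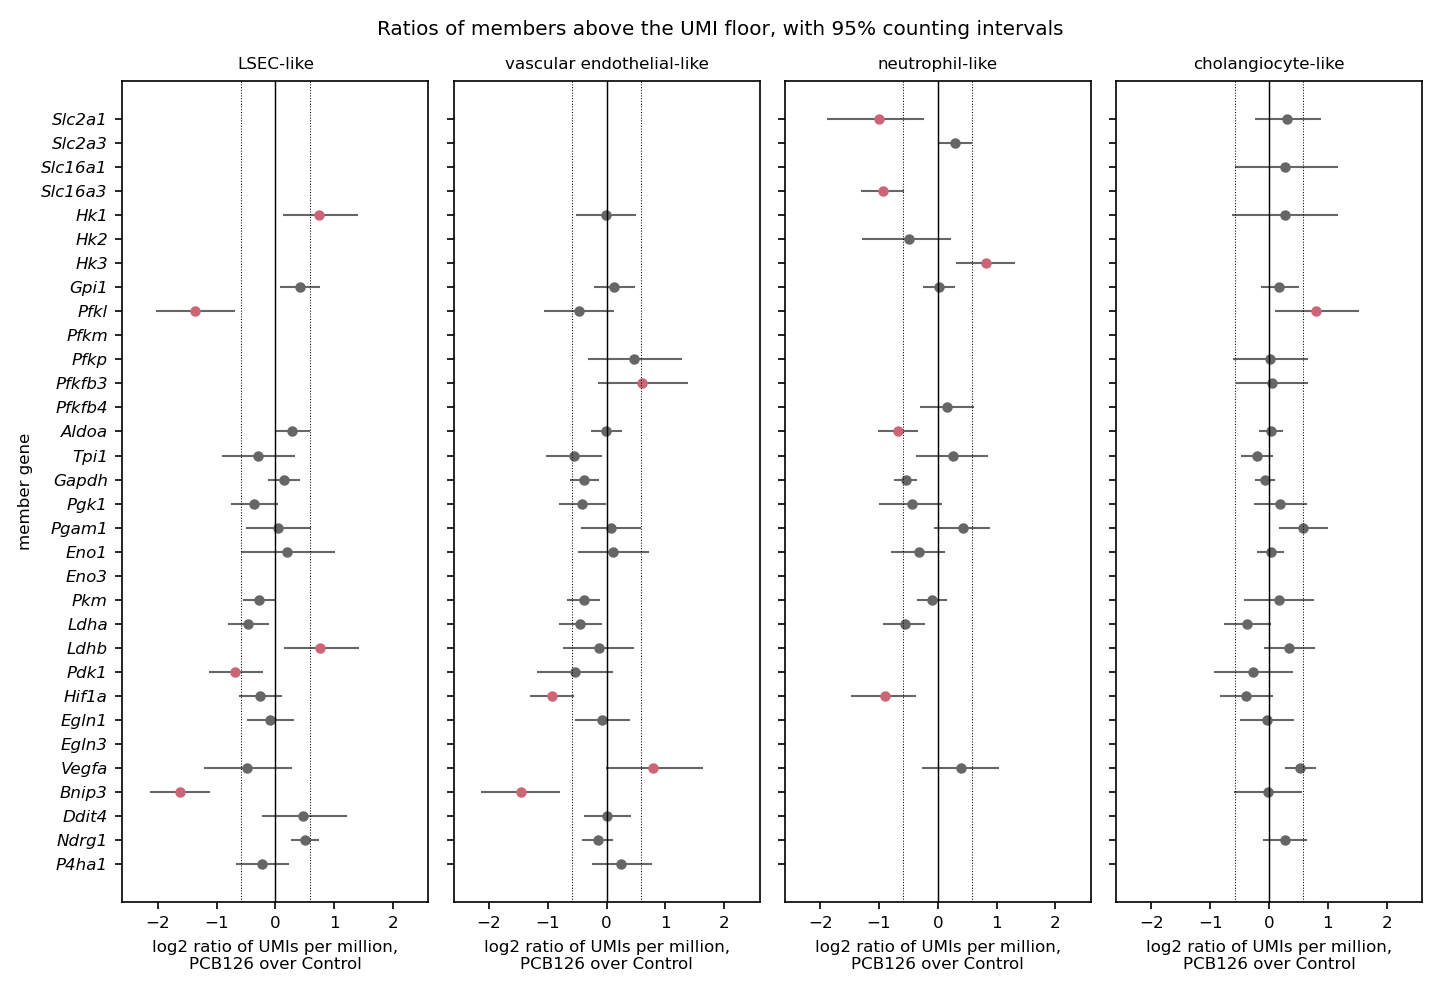
Log2 ratio of the level in PCB126 cells over Control cells (x axis) for each member above the floor (rows) in the 4 compared classes, with 95% counting intervals as bars. Dotted lines mark 1.5-fold and red points the members past it; Bnip3 lies to the left in both endothelial classes.

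Bnip3 gave the lowest ratio among members above the floor in LSEC-like cells, with 76 UMIs and 73.9 CPM in Control against 65 UMIs and 24 CPM in PCB126 cells, a ratio of 0.325 (95% counting interval 0.23 to 0.459). Pfkl, the liver-type phosphofructokinase, stood at 39.9 CPM in Control and 15.5 CPM in PCB126 cells (ratio 0.389, 0.247 to 0.614). Pdk1 stood at 68.1 and 42.5 CPM (0.624, 0.46 to 0.853). So the mitophagy receptor, 1 phosphofructokinase and the pyruvate dehydrogenase kinase were on the lower side. Pfkl lay under the floor level of 19.5 CPM in PCB126 cells and passed it only through the Control library. Hk1 was at 27.2 CPM in Control and 45.5 CPM in PCB126 cells (1.67, 1.1 to 2.62), and Ldhb at 27.2 and 46.2 CPM (1.7, 1.12 to 2.66). Within 1.5-fold but with intervals that exclude 1 were Ndrg1 (208 and 293 CPM), Gpi1 (99.2 and 132 CPM) and Aldoa (143 and 175 CPM) on the higher side and Ldha (114 and 82.8 CPM) and Pkm (184 and 152 CPM) on the lower. The intervals of the other 10 members above the floor, Gapdh (175 and 193 CPM) and Hif1a (101 and 84.7 CPM) among them, included 1. With cells of at most 10% mitochondrial UMIs, 66 in each library, the log2 ratio was 0.13 for Hk1 in place of 0.72, 0.13 for Ldhb in place of 0.74 and -0.20 for Pfkl in place of -1.36, none of them past the fold, and -1.34 for Pdk1 in place of -0.68. The median mitochondrial shares of the class were 11.8% and 15%. With a stricter gate Hk1 was at 0.50 and Pdk1 at -0.37, also within the fold. The 12 members under the floor were all 4 carriers, Hk2, Hk3, Pfkm, Pfkp, Pfkfb3, Pfkfb4, Eno3 and Egln3.

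Markers of other cells differed in both directions between the LSEC-like cells of the libraries. The 10-gene erythroid panel summed to 2793 CPM in Control and 740.3 CPM in PCB126 cells, the 14-gene neutrophil panel to 273 and 80.6 CPM, the 12-gene hepatocyte panel to 426 and 156 CPM and the 10-gene proliferation list to 199 and 34.4 CPM. The plasma (395 and 124 CPM), monocyte (47.7 and 32.5 CPM) and plasmacytoid dendritic (1065 and 973 CPM) panels were also lower in PCB126 cells. Higher there were the vascular endothelial (961 and 1229.9 CPM), conventional dendritic (292 and 350.2 CPM), stellate (76.8 and 111 CPM), macrophage (34 and 65.1 CPM), cholangiocyte (15.6 and 26.3 CPM), T and NK (1.95 and 15.5 CPM) and B (0 and 1.48 CPM) panels. Their part in these ratios was not tested.

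LSEC-like cells were also divided by zonal marker genes into a pericentral-like stratum, with 98 Control and 300 PCB126 cells, and a periportal-like one, with 67 and 145. In the Control library several members were higher in the pericentral-like stratum. Aldoa was at 181 against 71.9 CPM (ratio 2.52, 1.6 to 4.13), Pkm at 223 against 113 CPM (1.99, 1.37 to 2.94) and Ndrg1 at 251 against 125 CPM (2, 1.41 to 2.91). Egln1, P4ha1, which hydroxylates collagen prolines, Hif1a and Gapdh also had intervals above 1, with ratios of 1.9, 2.06, 1.73 and 1.46. In the PCB126 library Aldoa was at 199 against 120.2 CPM (1.66, 1.31 to 2.11) and Pkm at 173 against 98.8 CPM (1.75, 1.36 to 2.29), and Pdk1 (1.73) and Vegfa (2.69) had intervals above 1. Ndrg1 was at 297 and 292 CPM there (1.01, 0.866 to 1.19), and Hif1a at 83.5 and 90.8 CPM (0.919, 0.687 to 1.24). Egln1, P4ha1 and Gapdh likewise had intervals that included 1 in that library. The difference between the libraries in these zonal ratios was not tested.

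Bnip3 was lower in PCB126 cells in both strata, with 81.5 against 25.8 CPM in pericentral-like and 59.4 against 20 CPM in periportal-like cells (ratios 0.317 and 0.337). Ndrg1 differed mainly in periportal-like cells, at 125 in Control and 292 CPM in PCB126 cells (2.34, 1.66 to 3.36), against 251 and 297 CPM in pericentral-like cells (1.18, 0.994 to 1.42). The periportal markers Ntn4 and Adgrg6 are among the leading genes of cluster 3, which held 72 Control and 8 PCB126 LSEC-like cells. The part of that cluster in the stratum values was not tested. Hif1a was lower in pericentral-like PCB126 cells (119 and 83.5 CPM; 0.7, 0.53 to 0.93), while the periportal-like values were 68.8 and 90.8 CPM (1.32, 0.806 to 2.24). Restricting LSEC-like cells to cluster 7, which both libraries fill, gave Bnip3 at 78.1 and 22.7 CPM (0.291, 0.154 to 0.538), Pfkl at 52.1 and 26.1 CPM (0.501) and Hif1a at 148 and 69.2 CPM (0.469, 0.318 to 0.694). Ldhb, past the fold over all LSEC-like cells, was at 40.5 and 42 CPM in that cluster, and Pdk1 at 55 and 46.5 CPM. Ndrg1 was at 287 and 307 CPM there (1.07, 0.847 to 1.36).

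**Figure D3:**
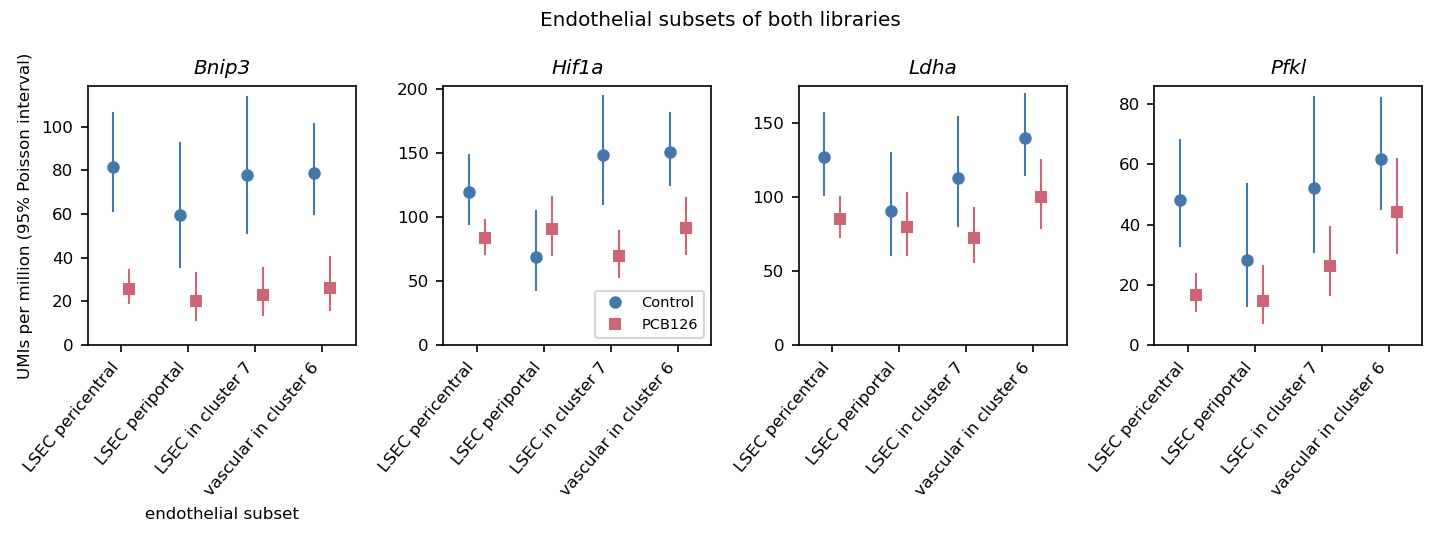
Levels of Bnip3, Hif1a, Ldha and Pfkl in CPM (y axis, from 0) in 4 endothelial subsets of the Control (circles) and PCB126 (squares) libraries, with 95% Poisson intervals. Bnip3 is lower in PCB126 cells in each subset, from 81.5 to 25.8 in pericentral-like and from 78.7 to 26 in vascular cluster 6 cells, whereas Hif1a in periportal-like cells is not.

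In vascular endothelial-like cells 22 members were above the floor. Pfkfb3 and Vegfa were higher and Hif1a and Bnip3 lower, 4 of 22, where 17.0% of the 6412 genes above the floor were past the fold (5.94% higher and 11.1% lower). The median log2 ratio was -0.11, beside -0.09 for all genes. As in LSEC-like cells, the count lies near its background. Hif1a was at 150.3 CPM in Control (169 UMIs) and 79.4 CPM in PCB126 cells (108 UMIs), a ratio of 0.528 (0.411 to 0.676). Bnip3 was at 60.5 and 22 CPM (0.365, 0.229 to 0.568). The transcription factor subunit and 1 of its targets were thus both on the lower side, while Vegfa, another target, was at 18.7 and 32.3 CPM (1.73, 1.01 to 3.07). Pfkfb3, which makes the activator of phosphofructokinase, was at 22.2 and 33.8 CPM, with an interval that included 1 (0.915 to 2.58). With a stricter gate the log2 ratios of Vegfa and Pfkfb3 were 0.40 and 0.37, within the fold. Of the enzymes within 1.5-fold, Gapdh (306 and 235 CPM), Tpi1 (80.9 and 55.1 CPM), Pgk1 (108 and 80.8 CPM), Pkm (223 and 170.5 CPM) and Ldha (135 and 99.2 CPM) had intervals below 1. The other 13 members above the floor had intervals that included 1, and the 10 under it were the 4 carriers, Hk2, Hk3, Pfkm, Pfkfb4, Eno3 and Egln3. In cluster 6, with 64 Control and 78 PCB126 cells of the class, Hif1a was at 151 and 91 CPM (0.603, 0.441 to 0.818) and Bnip3 at 78.7 and 26 CPM (0.33, 0.188 to 0.556). The erythroid panel summed to 988 and 61.7 CPM and the neutrophil panel to 291 and 110.2 CPM in this class. Other markers went the other way. Of the LSEC markers, Stab2 (63.1 and 119 CPM) and Clec4g (333 and 456 CPM) were higher in PCB126 cells, while Lyve1 (99.6 and 52.9 CPM) was lower. The part of these markers was not tested.

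In neutrophil-like cells 17 members were above the floor. Hk3 was higher and Slc2a1, Slc16a3, Aldoa and Hif1a lower, 5 of 17, where 28.1% of the 2082 genes above the floor were past the fold (18.0% higher and 10.1% lower). The median log2 ratio was -0.31, beside 0.14 for all genes. Slc16a3 was at 331 CPM in Control (1046 UMIs) and 174 CPM in PCB126 cells (73 UMIs), a ratio of 0.526 (0.409 to 0.667). Hif1a was at 143 and 76.3 CPM (0.535, 0.362 to 0.767) and Slc2a1 at 71.6 and 35.8 CPM (0.5, 0.275 to 0.842). Lactate exporter, basal glucose carrier and HIF subunit were thus each between 0.5 and 0.535 of their Control level. Slc2a1, with 15 UMIs in PCB126 cells, lay under the floor level of 47.7 CPM there and passed it only through the Control library. Aldoa was at 330.1 and 208 CPM (0.629, 0.499 to 0.783), Gapdh at 972 and 668 CPM (0.687, 0.606 to 0.777) and Ldha at 285 and 193 CPM (0.678, 0.533 to 0.851). Hk3, the myeloid hexokinase, was at 60.8 and 107 CPM (ratio 1.76, with an interval above 1), and Slc2a3 at 253 and 310.1 CPM (1.22, 1.01 to 1.47). The other 9 members above the floor had intervals that included 1. The 15 under the floor were Slc16a1, Hk1, Pfkl, Pfkm, Pfkp, Pfkfb3, Eno3, Ldhb, Pdk1, Egln1, Egln3, Bnip3, Ddit4, Ndrg1 and P4ha1. Bnip3, one of these, had 92 Control and 24 PCB126 UMIs, or 29.1 and 57.3 CPM.

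These neutrophil-like values rest on 97 PCB126 cells with 419163 UMIs. In cluster 12, with 238 Control and 33 PCB126 cells of the class, Slc16a3 was at 346 and 152 CPM (0.439, 0.257 to 0.708), Aldoa at 320.1 and 135 CPM and Hif1a at 142 and 84.4 CPM (0.594, 0.277 to 1.13). Ldha was at 183 and 177 CPM there. With cells of at most 10% mitochondrial UMIs, of which the PCB126 library had 27 in this class, the log2 ratio of Slc2a1 was 0.03 in place of -0.96, and those of Aldoa (-0.32), Hif1a (-0.45) and Hk3 (0.58) were within the fold. The class's own 14-gene neutrophil panel summed to 196918 CPM in Control and 126335 CPM in PCB126 cells, so it took a larger part of the Control total. Markers of other cells again differed in both directions. The part of all these panels was not tested. The erythroid panel summed to 3400.3 and 465 CPM, the hepatocyte panel to 609 and 184 CPM and the plasma panel to 425 and 74 CPM. Higher in PCB126 cells were the LSEC (54.8 and 155 CPM), vascular endothelial (25.7 and 42.9 CPM) and stellate (33.6 and 54.9 CPM) panels. So were the plasmacytoid dendritic (8.24 and 26.2 CPM), T and NK (6.34 and 19.1 CPM), conventional dendritic (6.97 and 9.54 CPM) and B (2.53 and 4.77 CPM) panels.

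In cholangiocyte-like cells, all of them in 1 cluster, 22 members were above the floor and only Pfkl was past the fold, 1 of 22, where 11.9% of the 7479 genes above the floor were past it (7.10% higher and 4.81% lower). The median log2 ratio was 0.10, beside 0.08 for all genes. Pfkl was at 22.1 CPM in Control and 38.4 CPM in PCB126 cells (1.74, 1.09 to 2.84). Vegfa was at 175 and 253 CPM (1.44, 1.22 to 1.71) and Pgam1, a phosphoglycerate mutase, at 64.7 and 96.7 CPM (1.5, 1.14 to 1.98), just under the fold. The intervals of the other 19 members above the floor included 1. Bnip3 was at 40.1 and 39.6 CPM (0.988, 0.673 to 1.46), Hif1a at 75.3 and 57.6 CPM (0.766, 0.569 to 1.03), Gapdh at 479 and 456 CPM and Ldha at 91.7 and 70.9 CPM. The 10 members under the floor were Slc2a3, Slc16a3, Hk2, Hk3, Pfkm, Pfkfb4, Eno3, Egln3, Ddit4 and P4ha1. Just outside the floor, Ddit4, an inhibitor of mTOR signalling, had 29 and 14 UMIs (23.7 and 8.41 CPM). The erythroid panel summed to 4151 and 157 CPM in this class, the neutrophil panel to 1960.1 and 1115 CPM and the hepatocyte panel to 7899 and 6226 CPM. Higher in PCB126 cells were the LSEC (22.9 and 79.3 CPM) and plasmacytoid dendritic (116 and 148 CPM) panels. The B (3.27 and 5.4 CPM) and T and NK (0 and 0.601 CPM) panels were also higher there. The part of these panels was not tested.

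Genes of neighbouring pathways were taken from lists, which were written with earlier results of these data known. Of 23 further HIF target genes, 9 were above the floor in LSEC-like cells, and Adm, Kdm3a, Mxi1, Ero1l and Loxl2 were lower in PCB126 cells and none higher, 5 of 9 where 8.42% of genes were lower. Their median log2 ratio was -0.60. Mxi1 and Loxl2 lay under the floor level of 19.5 CPM in PCB126 cells and passed it only through the Control library. The count of 5 of 9 is therefore a description only. Mxi1, an antagonist of MYC, was at 52.5 and 14.1 CPM (0.267, 0.172 to 0.413), Loxl2, a collagen cross-linking enzyme, at 57.4 and 18.1 CPM (0.316, 0.212 to 0.469), and Adm, the vasodilator peptide adrenomedullin, at 57.4 and 29.2 CPM (0.509, 0.359 to 0.726). Cluster 7 holds a part of these same cells, and of this list only the 5 genes already past the fold were examined there. It is therefore no independent check. All 5 were lower in it, each with an interval below 1. Their ratios were 0.307 for Adm, 0.327 for Mxi1 and 0.392 for Loxl2. Kdm3a, a histone demethylase, was at 0.468 and Ero1l, an oxidase of the endoplasmic reticulum, at 0.523. Of 11 other genes of the HIF machinery, 8 were above the floor, and the ubiquitin ligase subunits Elob (89.5 and 143 CPM) and Rbx1 (84.6 and 129 CPM) were higher, 2 of 8 where 11.4% of genes were higher. Epas1, the alpha subunit most abundant in endothelium, was at 557 and 569 CPM (1.02, 0.927 to 1.13), and Arnt at 52.5 and 55.1 CPM (1.05, 0.763 to 1.46). The mitochondrial pyruvate carrier subunits Mpc1 (23.3 and 56.2 CPM; 2.41, 1.56 to 3.87) and Mpc2 (24.3 and 51 CPM; 2.1, 1.36 to 3.35) were higher, 2 of 6 genes above the floor on the list of pyruvate entry, beside the same 11.4%.

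In the other classes the further HIF targets were divided. Of 11 above the floor in vascular endothelial-like cells, P4ha2 was higher (11.6 and 28.7 CPM) and Adm and Stc2 (32 and 9.55 CPM) were lower, 3 of 11 where 17.0% of genes were past the fold, with a median of -0.11. P4ha2 and Stc2 each passed the floor level of 17.8 CPM only through the library where it is high. Of 5 in neutrophil-like cells none was past the fold, where 28.1% of genes were, with a median of 0.30. Of 10 in cholangiocyte-like cells Mxi1 (22.9 and 43.2 CPM) and Ero1l were higher and Cited2 (220.2 and 147 CPM) was lower, 3 of 10 where 11.9% of genes were past the fold, with a median of 0.10. Mxi1 thus lay on opposite sides in LSEC-like and cholangiocyte-like cells, a difference that was not tested. Among 7 pentose phosphate pathway genes, G6pdx, its first enzyme, was lower in neutrophil-like cells (121 and 71.6 CPM; 0.591, 0.394 to 0.858), Rpia was higher in cholangiocyte-like cells, and neither endothelial class had one past the fold. The remaining lists gave few calls, to be read against the same shares of all genes: Galk1 and Pck2 were lower in vascular endothelial-like cells, Slc2a6 was lower and Mpc1 higher in neutrophil-like cells, and Pgm2 and Epas1 were lower in cholangiocyte-like cells. As a check of exposure, 4 of 5 AHR list genes above the floor in LSEC-like and 4 of 6 in vascular endothelial-like cells were higher, where 11.4% and 5.94% of genes were, and the AHR target Cyp1a1 was at 29.2 and 4622 CPM in LSEC-like cells and at 311 and 5642 CPM in vascular endothelial-like cells. In neutrophil-like cells Tiparp, another AHR target, was at 281 and 241 CPM and was the sole gene of that list above the floor. In cholangiocyte-like cells 4 of the list were above the floor, with a median of -0.17. There Cyp1a1 had no UMI in Control cells, where 3 counts would be 2.46 CPM, and 99 UMIs (59.5 CPM) in PCB126 cells, while Tiparp was lower (31.9 and 18 CPM; 0.564, 0.339 to 0.932).

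**Figure D4:**
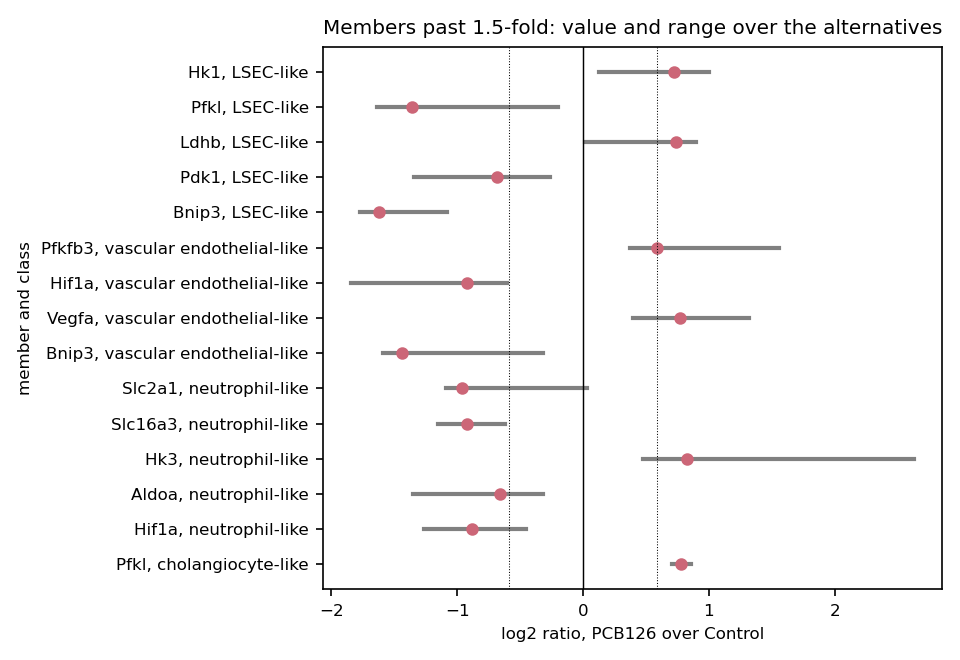
Log2 ratio (x axis) of each member past 1.5-fold in each compared class (rows), with the reported value as a red point and the range over the other ways of processing as a grey bar; dotted lines mark 1.5-fold. The bars of Bnip3 in LSEC-like, Hif1a in vascular endothelial-like, Slc16a3 in neutrophil-like and Pfkl in cholangiocyte-like cells stay beyond 1.5-fold, and that of Slc2a1 in neutrophil-like cells crosses 0. The bars include alternatives in which a gene was under the floor.

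Of the 15 members and classes past the fold, 4 had a log2 ratio past it in each alternative, with or without passing the floor there. These were Bnip3 in LSEC-like cells (log2 ratio from -1.77 to -1.08), Hif1a in vascular endothelial-like cells (-1.84 to -0.60), Slc16a3 in neutrophil-like cells (-1.15 to -0.62) and Pfkl in cholangiocyte-like cells (0.71 to 0.86). Bnip3 in vascular endothelial-like cells was past it in all but the one with cells thinned to 1000 UMIs, which gave -0.32. After that thinning Bnip3 in LSEC-like, Hif1a in vascular endothelial-like and Pfkl in cholangiocyte-like cells were under the floor. Pfkl was also under a floor of 50 UMIs there. Alternatives that change only the floor cannot change a ratio.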

How the data were processed

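Droplet 3′ single-cell libraries of 2 mouse livers were analysed. The deposited matrices are unnormalized UMI counts for every gene in every barcode, and the deposited lists of genes and barcodes are identifiers, that is, other content. Cell Ranger 6.0.0 wrote the matrices per the file headers. Per the submitters' processing notes, Seurat 4.0.1 and Cell Ranger 6.1.1 were used. For the genome build, nothing is stated in the labels or headers. GENCODE M21 (GRCm38) matched 34049 of 34244 gene rows. Cell names given by the authors were not used here.

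Barcodes with at least 500 UMIs, at least 250 genes and at most 20% mitochondrial UMIs were kept (1886 of 8550 Control and 1149 of 4307 PCB126 barcodes), and Scrublet scores removed 28 and 11 doublets at 0.8% per 1000 cells. The mitochondrial limit alone removed 412 Control and 1698 PCB126 barcodes. With a limit of 50%, LSEC-like cells numbered 276 and 1306 in place of 178 and 472. The cells held 13759333 and 9871419 UMIs. Each cell was scored on 14 marker panels, each marker scaled by its 99th percentile, and gated with at least 3 markers and a margin over the next panel. Endothelial cells were LSEC-like where the LSEC panel made up at least 0.7 of both endothelial scores. No class was given to 69 Control cells (3.71%) and 33 PCB126 cells (2.9%). Leiden clusters (member genes left out, 2000 variable genes, 30 components, 15 neighbours, resolution 1) served as an alternative and to describe the classes.

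UMIs were summed per class and library and divided by the class total (CPM). Intervals are exact 95% intervals (Poisson, conditional binomial or Clopper-Pearson). For log2 ratios 0.5 counts were added. With 1 library per group no p-value was computed. The ratio code was tested on simulated data. The members and the other gene lists were chosen with earlier results of these data known. Values are given in full for members past 1.5-fold with an interval excluding 1, for the 8 members with the widest Control range and for Hif1a, Vegfa, Gapdh and Ldha; from other lists the 3 genes per class with the interval bound farthest from 1 could be named. Arnt, Kdm3a, Ero1l and Pgm2 were named outside that rule, after their values were seen. So were Bnip3 in neutrophil-like, Ddit4 in cholangiocyte-like and Adm in vascular endothelial-like cells. Levels of other members, such as Egln3, are also given outside it. Of 2 identifiers named Aldoa, 1 had no UMI. Python 3.11.15, scanpy 1.11.5, scipy 1.17.1, numpy 2.4.6 and pandas 2.3.3 were used.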

Additional observations from a re-analysis of the deposited data

Results flagged for a closer look

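The ratio of Pfkl lay on opposite sides of 1 in 2 classes, each past 1.5-fold with an interval excluding 1. Its log2 ratio of PCB126 over Control was 0.78 in cholangiocyte-like cells and -1.36 in LSEC-like cells. With cells of at most 10% mitochondrial UMIs the LSEC-like value was -0.20. After thinning each cell to 1000 UMIs it was -0.28, and both are within 1.5-fold. The cholangiocyte-like value was past 1.5-fold in all 13 alternatives run for that class, with or without passing the floor. Those with a floor of 5 or 50 UMIs could not change it. After thinning and with a floor of 50 UMIs, Pfkl was under the floor in that class. The difference between the classes was not tested, since each rests on 1 library per group.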

How the results depend on the processing

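No paired analysis was possible because each group has 1 library. Alternatives numbered 16 in LSEC-like, 14 in vascular endothelial-like, 15 in neutrophil-like and 13 in cholangiocyte-like cells. Of these the best shared cluster (not run for cholangiocyte-like cells) and LSEC-like cells without a cluster led by contractile genes were chosen after seeing the data. The members' median log2 ratio ranged from -0.25 to 0.06 in LSEC-like, -0.27 to 0.00 in vascular endothelial-like, -0.46 to -0.02 in neutrophil-like and 0.02 to 0.18 in cholangiocyte-like cells. The counts of members past 1.5-fold (5, 4, 5 and 1 in these classes) moved more, and the cause was not tested. In LSEC-like cells the count was 2 with Leiden clusters, with a stricter gate, with at most 10% mitochondrial UMIs and with a floor of 50 UMIs, 1 after thinning, which leaves few members above the floor, and 3 within the best shared cluster. In vascular endothelial-like cells it was 0 after thinning, 1 with a floor of 50 UMIs and 7 within the shared cluster. In neutrophil-like cells it was 2 with at most 10% mitochondrial UMIs and with a floor of 50 UMIs, 3 within the shared cluster, 13 with at most 50% mitochondrial UMIs, 8 when centred on the median of all genes, 9 with a floor of 5 UMIs and 11 with maturity strata weighed equally, which rests on 4 PCB126 cells without a mature marker. In cholangiocyte-like cells it was 3 with Leiden clusters, with doublets kept, with each cell weighed equally and with a floor of 5 UMIs, 2 with the stricter gate, with either mitochondrial limit and with totals without mitochondrial and rRNA-like genes, and 0 after thinning and with a floor of 50 UMIs. Slc2a1 in neutrophil-like cells changed sides, to 0.03, with at most 10% mitochondrial UMIs. That limit also ended the calls of Hk1, Pfkl and Ldhb in LSEC-like, Vegfa in vascular endothelial-like and Hk3, Aldoa and Hif1a in neutrophil-like cells. Depth limits the low members, since those under the floor were not called here.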
